A study of Mus musculus with 8 samples.

Results

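The classical protein tyrosine phosphatases were followed in leukaemic bone marrow cells of mice in which Fubp1 had been targeted by a short hairpin RNA. The genes were chosen by name alone, as Ptpn followed by a number or Ptpr followed by a letter and at most 1 digit, and 38 of the 47729 genes of the deposited count table matched. Of these, 21 encode receptor-type and 17 non-receptor enzymes. The comparison is between Fubp1 shRNA libraries (4 mice) and scrambled shRNA libraries (4 mice), all C57BL/6. Marrow of donors given 5-fluorouracil had been infected with a BCR-ABL1 retrovirus marked by RFP and a Venus-marked shRNA lentivirus, and was then grafted into sublethally irradiated recipients, so that both groups carried BCR-ABL1. From each mouse, live marrow cells that lacked lineage markers and carried both reporters were sorted and their total RNA, depleted of ribosomal RNA, was sequenced. The model rests on virally expressed BCR-ABL1 in transplanted marrow, and the hairpin acts on the Fubp1 transcript and leaves the gene in place.

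Protein tyrosine phosphatases remove phosphate from tyrosine residues and so oppose, or in some cases assist, tyrosine kinases such as BCR-ABL1. Receptor-type members span the membrane and non-receptor members act in the cytosol, at the endoplasmic reticulum, on endosomes or in the nucleus. In blood cells the best known are CD45 (Ptprc), which sets the activity of SRC family kinases, SHP1 (Ptpn6), a brake on myeloid signalling that docks on inhibitory receptors, and SHP2 (Ptpn11), which carries growth factor signals toward RAS.

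Levels are CPM, the counts of a gene scaled to a common library total after TMM adjustment. Total counts ran from 24042761 to 44761356 in the Fubp1 shRNA and from 22465303 to 38495006 in the scrambled shRNA libraries. Fubp1 itself measured 281, 228, 220 and 239 CPM in Fubp1 shRNA replicates 1 to 4, against 296, 284, 291 and 396 CPM in scrambled shRNA replicates 1 to 4. All 4 Fubp1 shRNA values lay below all 4 scrambled values (exact two-sided permutation p = 0.0286, the smallest this design allows), while edgeR's quasi-likelihood test gave a log2 fold change of -0.39 (SE 0.12) with an adjusted p of 0.0604. On the first principal component of all tested genes, Fubp1 shRNA replicate 3 (29.0) lay among the scrambled libraries (13.7 to 57.3), while the other Fubp1 shRNA libraries lay between -81.2 and -34.1. Erythroid markers (12 of 12 tested) summed to 7085 to 11193 CPM in Fubp1 shRNA and 9005 to 9994 CPM in scrambled libraries. T and NK cell markers (9 genes, Cd3e, Cd3d, Cd4, Cd8a, Klrb1c and Ncr1 under 0.1 CPM in every library) summed to 4.92 to 98.9 CPM in Fubp1 shRNA and 3.30 to 9.56 CPM in scrambled libraries, mostly from Nkg7, at 2.00 to 86.6 and 1.804 to 8.10 CPM. B cell markers (9 genes) summed to 0.825 to 4.39 CPM in Fubp1 shRNA and 0.584 to 1.53 CPM in scrambled libraries, with Ms4a1 and Ebf1 under 0.1 CPM in all 8.

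Of the 38 genes, 26 had enough counts to be tested, 16 of the 17 non-receptor and 10 of the 21 receptor-type genes. Among the 26, edgeR called 1 higher and 2 lower in the Fubp1 shRNA libraries at an adjusted p under 0.05. Over all 13462 tested genes 15.3% were called, 8.02% higher and 7.29% lower, so the family's share of 11.5% was not above the background. At an unadjusted p under 0.05 there were 9 of the 26 genes, and 33.5% of all tested genes. Ptpru rose, and Ptpn13 and Ptpn20 fell. The median log2 fold change was 0.03 over the 26 genes and 0.00 over all tested genes, and the median size of the change regardless of sign was 0.14 and 0.20.

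The number called depended on Fubp1 shRNA replicate 3. Without that library 6 genes were called higher (Ptpn18, Ptpn22, Ptprc, Ptprf, Ptprs and Ptpru) and 2 lower (Ptpn13 and Ptpn20), out of 27 tested, which is 29.6% of the members where 24.7% of all tested genes were called. In the fits without 1 of the other 7 libraries, 0 were called higher and 1 or 2 lower. That is 3.7% to 7.69% of the members, where 3.80% to 13.4% of all tested genes were called. DESeq2 with all libraries called 5 higher (Ptpn18, Ptpn22, Ptprr, Ptprs and Ptpru) and 2 lower (Ptpn13 and Ptpn20) of 29 members with an adjusted p, 24.1%, where 23.1% of all genes were called. Of the 29 members with an adjusted p in the authors' deposited table, 6 passed 0.05 (Ptpn13, Ptpn18, Ptpn20, Ptpn22, Ptprs and Ptpru), where 21.3% of all genes with an adjusted p did.

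**Figure D1:**
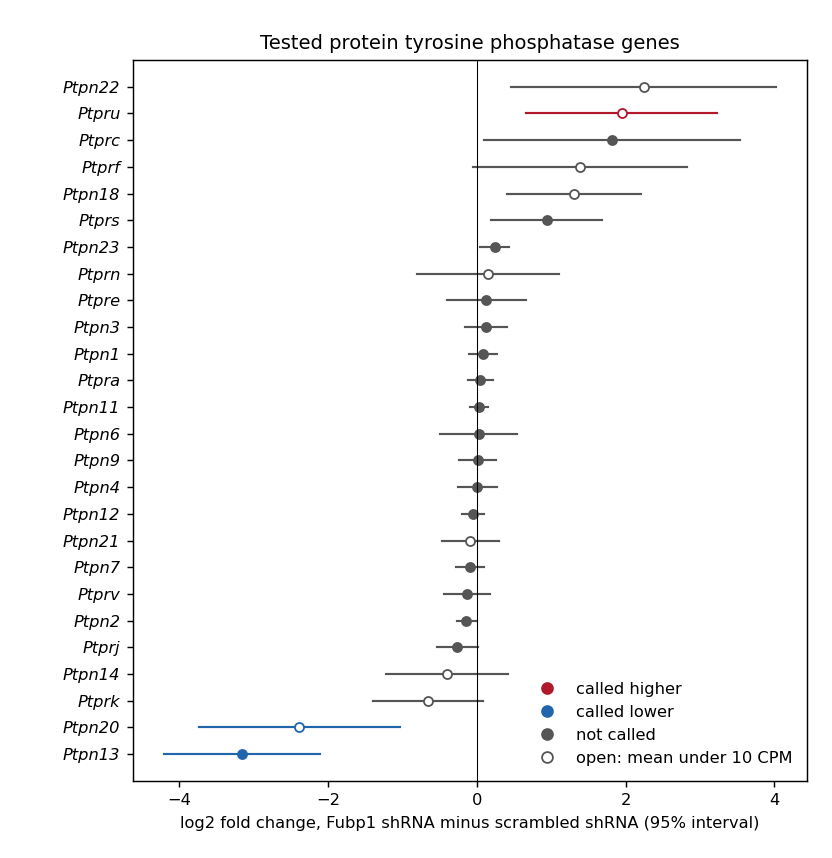
Log2 fold change (Fubp1 shRNA minus scrambled shRNA, x axis) of the 26 tested phosphatase genes (y axis), with 95% intervals from edgeR, 4 libraries per group. Ptpn13 lies farthest to the left at -3.16, most abundant members lie near 0, and 6 genes at the top reach 0.94 to 2.25 with wide intervals.

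Ptpn13 changed most. It encodes a very large non-receptor phosphatase with a FERM domain and several PDZ domains, known to bind the tail of the death receptor Fas in human cells. Its level was 4.07, 4.00, 4.32 and 1.33 CPM in Fubp1 shRNA replicates 1 to 4, against 31.9, 34.5, 41.2 and 13.8 CPM in scrambled replicates 1 to 4. The groups were far apart: the highest Fubp1 shRNA library lay well under the lowest scrambled one, and Fubp1 shRNA replicate 3 was as low as replicates 1 and 2. The means were 3.43 ± 1.41 CPM and 30.4 ± 11.7 CPM (SD, n = 4 each), so that 11.3% of the scrambled level was left. The log2 fold change was -3.16 (SE 0.46, 95% interval -4.21 to -2.11, adjusted p = 0.00734 by edgeR). The call held in all 15 alternatives, with a log2 fold change of -3.41 to -2.89 and an adjusted p of at most 0.0290. The authors' deposited table gives -2.43 with an adjusted p of 2.98e-14.

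Counts behind these levels were 101, 121, 136 and 61 in the Fubp1 shRNA and 1148, 1122, 1588 and 307 in the scrambled libraries. Scrambled replicate 4 was the lowest of its group and Fubp1 shRNA replicate 4 the lowest of the other. The gene (ENSMUSG00000034573) occupies positions 103425192 to 103598303 of chromosome 5, plus strand, in GENCODE M21 (GRCm38). Of its 28 annotated neighbours within 500 kb 5 were tested. Among these 1 was called higher and 1 lower, where 8.02% and 7.29% of all tested genes were. Aff1, which encodes a transcription elongation factor scaffold, was higher (log2 fold change 0.39, SE 0.08, adjusted p = 0.0161 by edgeR). Nudt9, an ADP-ribose hydrolase gene, was lower (-0.51, SE 0.09, adjusted p = 0.0113). Both were named after their values were seen. Aff1 lost the call with the replicate block and without scrambled replicate 2 (adjusted p up to 0.0778 by edgeR). Nudt9 kept it in all 15 alternatives. Megakaryocyte markers (9 genes, Ppbp under 0.1 CPM) summed to 137 to 218 CPM in Fubp1 shRNA and 68.9 to 86.9 CPM in scrambled libraries. Of 12 tested erythroid markers 4 were called higher and 5 lower, 75% where 15.3% of all tested genes were called. The part of such shifts in the Ptpn13 values was not tested.

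Ptpn20, a non-receptor member, also fell, at a very low level. It had 0, 7, 2 and 5 counts in the Fubp1 shRNA and 28, 14, 25 and 8 counts in the scrambled libraries. Its level was 0, 0.231, 0.0635 and 0.109 CPM in Fubp1 shRNA replicates 1 to 4, against 0.777, 0.431, 0.649 and 0.360 CPM in scrambled replicates 1 to 4. The groups did not overlap, but the highest Fubp1 shRNA library was within a few counts of the lowest scrambled one. The gene passed the count filter through the scrambled libraries alone, where it was high, so the lack of overlap is no added support. The log2 fold change was -2.39 (SE 0.60, adjusted p = 0.0321 by edgeR). The call was lost without Fubp1 shRNA replicate 4 or scrambled replicates 1, 2 or 3, where the adjusted p was up to 0.0888, and the gene was not tested with the filter at 1 CPM. Of 2 tested genes within 500 kb, Wdfy4, named after its value was seen, was higher (log2 fold change 2.29, SE 0.60, adjusted p = 0.0400 by edgeR). Over all tested genes 8.02% were called higher. Wdfy4 stayed called in 1 of the 8 fits without a library, and the adjusted p in these fits was up to 0.101 by edgeR.

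Ptpru, a receptor-type member of the subfamily that mediates adhesion between like cells, was the gene called higher. It measured 1.93, 1.95, 0.349 and 3.57 CPM in Fubp1 shRNA replicates 1 to 4, against 0.444, 0.523, 0.519 and 0.540 CPM in scrambled replicates 1 to 4. In 3 Fubp1 shRNA libraries it was well above the narrow scrambled range, and in replicate 3 it was below that range. The log2 fold change was 1.95 (SE 0.57, adjusted p = 0.0493 by edgeR), just past the threshold. Dropping single libraries ended the call in 7 of 8 cases (adjusted p up to 0.121 by edgeR), and it became firmer without Fubp1 shRNA replicate 3 (log2 fold change 2.28, adjusted p = 0.00259). Of 12 tested genes within 500 kb, 0 were called, where 15.3% of all tested genes were.

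**Figure D2:**
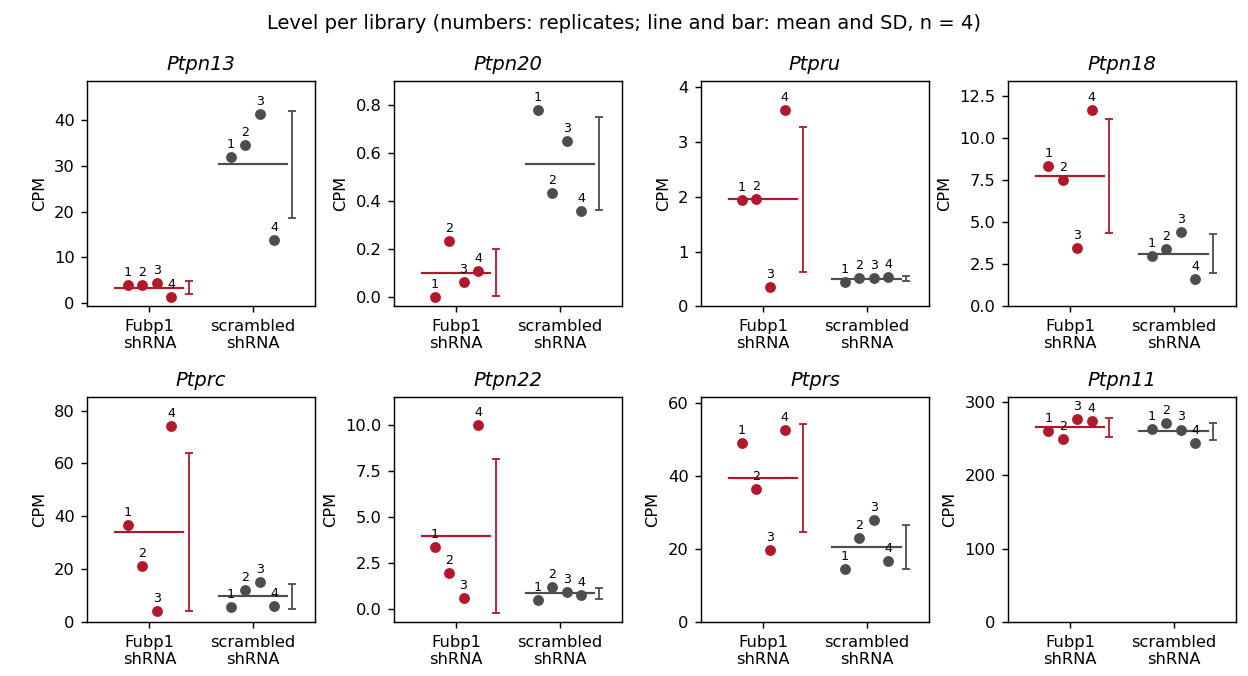
CPM in each library (y axis) for 8 phosphatase genes, Fubp1 shRNA left and scrambled shRNA right. Numbers are replicates, lines are means and bars are SDs (n = 4). Ptpn13 and Ptpn20 separate the groups, in Ptpru, Ptpn18, Ptprc, Ptpn22 and Ptprs the Fubp1 shRNA replicate 3 lies within or below the scrambled range, and Ptpn11 lies between 243 and 276 CPM in all 8 libraries.

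The upstream sequences of the genes that fell and of 2 that were high in the same Fubp1 shRNA libraries are shown because they differ in base composition and in the short motifs they hold. They are from RefSeq (GRCm38.p6), 5′ to 3′ on the gene's strand, cut at the annotated start. Capitals mark a match on either strand to 1 of 5 motifs. The GC box was searched as GGGCGG, the element bound by SP1-type factors. The CCAAT box, bound by the trimeric factor NF-Y, was searched under its own letters. The TATA box was searched as TATAAA, the core promoter element. The motif of GATA factors, known from erythroid genes, was searched as AGATAA. The core of sites for PU.1, a factor of myeloid cells, was searched as GAGGAA. No motif here holds another. They lie at chr5:103424942-103425191 (plus strand) for Ptpn13, chr14:33589020-33589206 (plus) for Ptpn20, chr4:131838289-131838528 (minus) for Ptpru and chr1:34459496-34459745 (plus) for Ptpn18.
Ptpn13: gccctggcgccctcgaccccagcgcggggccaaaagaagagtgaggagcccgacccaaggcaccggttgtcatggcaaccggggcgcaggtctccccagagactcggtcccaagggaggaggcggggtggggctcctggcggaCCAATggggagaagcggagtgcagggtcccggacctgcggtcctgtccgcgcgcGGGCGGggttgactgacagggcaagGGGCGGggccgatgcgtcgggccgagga
Ptpn20: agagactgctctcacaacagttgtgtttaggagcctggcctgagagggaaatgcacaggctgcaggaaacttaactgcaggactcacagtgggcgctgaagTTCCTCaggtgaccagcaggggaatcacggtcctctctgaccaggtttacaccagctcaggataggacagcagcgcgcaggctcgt
Ptpru: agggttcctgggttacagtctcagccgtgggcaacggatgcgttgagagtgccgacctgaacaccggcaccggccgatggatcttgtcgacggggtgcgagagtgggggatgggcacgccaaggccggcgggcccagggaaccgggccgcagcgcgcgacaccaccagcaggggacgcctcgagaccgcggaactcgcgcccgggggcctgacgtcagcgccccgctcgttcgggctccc
Ptpn18: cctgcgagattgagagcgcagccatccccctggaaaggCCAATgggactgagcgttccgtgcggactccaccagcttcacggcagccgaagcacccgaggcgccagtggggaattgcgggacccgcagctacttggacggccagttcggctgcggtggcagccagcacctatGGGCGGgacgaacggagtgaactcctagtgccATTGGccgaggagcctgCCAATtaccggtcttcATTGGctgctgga

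Measured over the 250 bases before the RefSeq start, the Ptpn13 window was 72.4% G and C, with an observed to expected CpG ratio of 0.76, 2 GC boxes and 1 CCAAT box. The Ptpn20 window was poorer, at 58.8% and 0.47, with 1 PU.1 core and, past the printed stretch, 1 CCAAT box. Ptpru had 71.2% and 0.98 with 0 matches to the 5 motifs, and Ptpn18 had 64.0% and 0.74 with 1 GC box and 4 CCAAT boxes. A window was found for 32 of the 38 members, with medians of 63.4% and 0.63 over their 46 windows, against 52.4% and 0.37 over 32851 windows of all genes. The median ratio was 0.70 over the 32 windows of tested members and 0.49 over the 14 windows of untested ones. GC boxes were in 52.2% of member windows and 32.7% of all windows, and PU.1 cores in 39.1% and 23.3%. CCAAT boxes were in 17.4% and 33.8%, TATA boxes in 4.35% and 12.4%, and GATA motifs in 6.52% and 9.99%. These matches describe the letters and are not evidence of binding.

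The abundant members lay close to 0. Of the 17 members with a mean of at least 10 CPM, 1 (Ptpn13) was called, and in 13 the 95% interval of the fold change stayed within 1.5-fold either way. The other 3 were Ptprc, Ptprs and Ptpre. Per kilobase of exon (GENCODE M21), the highest levels were those of Ptpn7 with 47.3 and 50.3 CPM per kilobase in Fubp1 shRNA and scrambled libraries, Ptpn11 with 35.4 and 34.7, Ptpn12 with 30.8 and 31.9, and Ptpn6 with 24.5 and 24.1. The summed level of all 38 genes was 1251 to 1389 CPM in the Fubp1 shRNA and 1206 to 1372 CPM in the scrambled libraries, so the groups overlapped.

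Ptpn11, the SHP2 gene, measured 260, 250, 276 and 274 CPM in Fubp1 shRNA replicates 1 to 4 and 263, 271, 262 and 243 CPM in scrambled replicates 1 to 4. Its log2 fold change was 0.03 with a 95% interval of -0.10 to 0.15 (adjusted p = 0.760 by edgeR). Ptpn6, the SHP1 gene, measured 80.3, 64.8, 44.9 and 84.5 CPM in Fubp1 shRNA and 63.7, 73.4, 84.2 and 48.3 CPM in scrambled libraries. It varied within both groups and had a log2 fold change of 0.02 (95% interval -0.50 to 0.54, adjusted p = 0.956). Fubp1 shRNA replicate 3 and scrambled replicate 4 were the libraries lowest in Ptpn6. In them the ratio of Ptpn11 to Ptpn6 was 6.15 and 5.04, against 3.12 to 4.13 in the other 6 libraries. As these libraries were picked by their Ptpn6 level, the ratio restates that level and is no separate result.

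Ptpn1 and Ptpn2 encode PTP1B and TC-PTP, near relatives that act on JAK kinases and growth factor receptors. Ptpn1 averaged 81.3 ± 9.44 CPM in Fubp1 shRNA and 77.1 ± 2.56 CPM in scrambled libraries (SD, n = 4 each; log2 fold change 0.08, 95% interval -0.11 to 0.27). Ptpn2 measured 60.2, 64.5, 65.5 and 58.9 CPM in Fubp1 shRNA replicates 1 to 4, against 69.6, 67.6, 68.7 and 68.3 CPM in scrambled replicates 1 to 4. Its groups did not overlap, yet the difference was small and not called (log2 fold change -0.14, SE 0.06, adjusted p = 0.118 by edgeR). Together with Ptpn13 and Ptpn20 it made 3 tested members with all Fubp1 shRNA libraries below all scrambled ones. That is 11.5% of 26, while 11.1% of all tested genes had that pattern. Ptpn20 passed the count filter through the scrambled libraries alone, as given above, so its place in this count is no added support. In 0 members were all 4 Fubp1 shRNA libraries above all scrambled ones, against 9.54% of all tested genes.

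Ptpn7 was the most abundant member. It encodes a phosphatase of leukocytes that acts on MAP kinases, and it measured 289, 296, 294 and 276 CPM in Fubp1 shRNA replicates 1 to 4 and 363, 279, 292 and 294 CPM in scrambled replicates 1 to 4 (log2 fold change -0.09, adjusted p = 0.501 by edgeR). Ptprv, a receptor-type gene, starts 105 bases away in the other direction on chromosome 1. At 23.3 ± 3.06 CPM in Fubp1 shRNA and 25.5 ± 3.90 CPM in scrambled libraries (SD, n = 4 each) it was far lower, with 3.34 and 3.65 CPM per kilobase. Neither gene of the pair was called (Ptprv, log2 fold change -0.13, adjusted p = 0.543). The annotation lists Ptprv as a processed transcript.

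The other abundant non-receptor genes moved little. Ptpn23, which encodes an endosomal sorting protein with a phosphatase domain, measured 65.4, 63.8, 69.8 and 58.2 CPM in Fubp1 shRNA and 51.3, 49.9, 55.5 and 61.3 CPM in scrambled libraries. Of the Fubp1 shRNA libraries 3 were above all scrambled ones, and the gene was not called (log2 fold change 0.24, SE 0.08, adjusted p = 0.0842 by edgeR). Ptpn12, a PEST-type enzyme that acts on cytoskeletal adaptors, averaged 107.9 ± 3.65 CPM in Fubp1 shRNA and 112 ± 9.01 CPM in scrambled libraries (SD, n = 4 each). Ptpn9 and Ptpn4 had log2 fold changes of 0.01 each and Ptpn3 of 0.12, with 95% intervals within -0.26 to 0.41. The low FERM-domain relatives Ptpn14 and Ptpn21 averaged 5.73 ± 1.68 and 5.55 ± 0.844 CPM in Fubp1 shRNA, against 7.55 ± 3.28 and 5.88 ± 0.854 CPM in scrambled libraries (SD, n = 4 each).

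A second group was high in Fubp1 shRNA replicates 1, 2 and 4 but not in replicate 3. Ptprc, the gene of the leukocyte marker CD45, measured 36.5, 21.1, 4.28 and 74.1 CPM in Fubp1 shRNA replicates 1 to 4, against 5.50, 11.9, 15.1 and 5.98 CPM in scrambled replicates 1 to 4. Replicate 3 was below the whole scrambled range and the other 3 above it. The fold change was therefore large but uncertain (log2 1.82, SE 0.75, 95% interval 0.09 to 3.54, adjusted p = 0.131 by edgeR), and without replicate 3 it was 2.17 (adjusted p = 0.0243).

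Ptpn22, a PEST-type phosphatase that restrains lymphocyte receptor signalling, was also high in Fubp1 shRNA replicates 1, 2 and 4, with replicate 3 within the scrambled range. It measured 3.34, 1.95, 0.571 and 9.97 CPM in Fubp1 shRNA and 0.472, 1.17, 0.935 and 0.764 CPM in scrambled libraries. Its log2 fold change was 2.25 (SE 0.78, adjusted p = 0.0841 by edgeR). Ptpn18, the remaining PEST-type member, measured 8.34, 7.50, 3.46 and 11.7 CPM in Fubp1 shRNA replicates and 3.03, 3.45, 4.41 and 1.62 CPM in scrambled replicates (log2 fold change 1.30, SE 0.40, adjusted p = 0.0565). In both genes 3 of 4 Fubp1 shRNA libraries exceeded every scrambled one. Ptprs, a receptor for proteoglycans, measured 48.8, 36.2, 19.8 and 52.4 CPM in Fubp1 shRNA and 14.5, 22.9, 27.9 and 16.5 CPM in scrambled libraries (log2 fold change 0.94, SE 0.33, adjusted p = 0.0851). Its near relative Ptprf was lower, at 1.09 ± 0.745 CPM in Fubp1 shRNA and 0.420 ± 0.222 CPM in scrambled libraries (SD, n = 4 each; log2 fold change 1.39, adjusted p = 0.163). Without Fubp1 shRNA replicate 3 these 4 genes were called, with log2 fold changes of 2.59 for Ptpn22, 1.53 for Ptpn18, 1.15 for Ptprs and 1.73 for Ptprf.

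**Figure D3:**
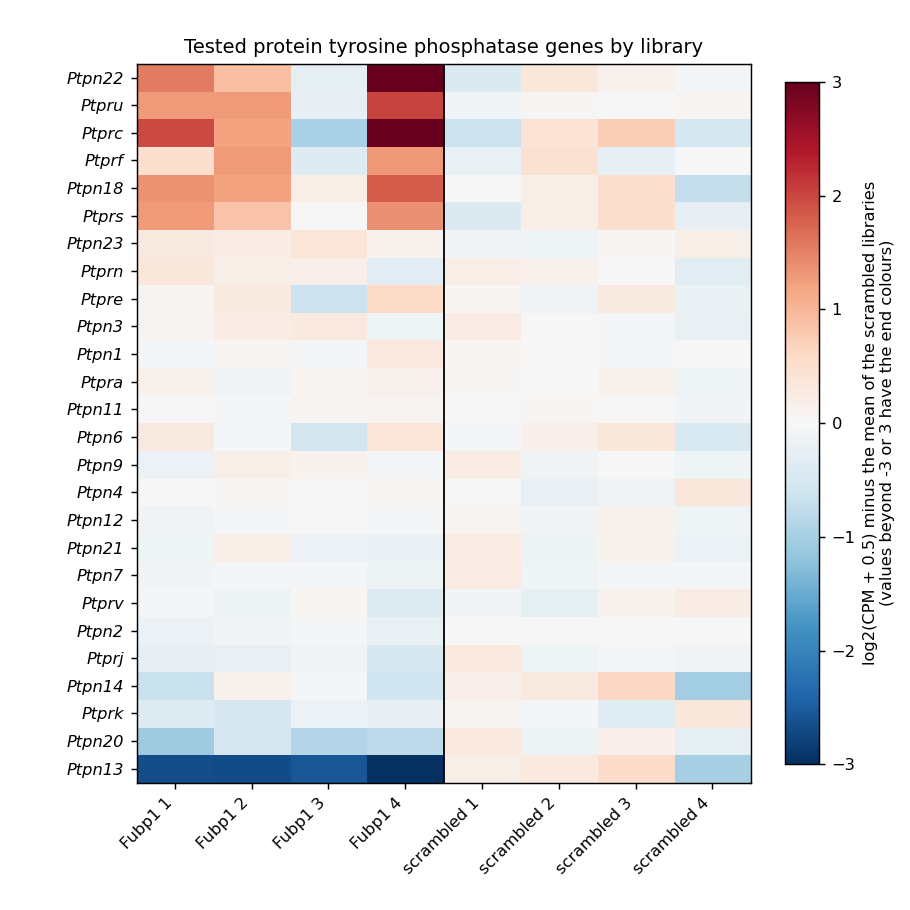
Level of the 26 tested phosphatase genes (rows, ordered by fold change) in 8 libraries (columns), as log2(CPM + 0.5) minus the mean of the scrambled libraries; values beyond -3 or 3 have the end colours. The top 6 rows are high in Fubp1 shRNA replicates 1, 2 and 4 and pale or low in replicate 3, while the 2 bottom rows are low in all 4 Fubp1 shRNA libraries.

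Markers of early granulocytes followed the same libraries. The 7 measured genes of that list (Mpo, Elane, Prtn3, Ctsg, Ms4a3, Cebpe and Srgn) summed to 2143, 1092, 182 and 3858 CPM in Fubp1 shRNA replicates 1 to 4 and to 129, 261, 454 and 148 CPM in scrambled replicates 1 to 4. Within the Fubp1 shRNA group 5 of the 26 tested phosphatase genes (Ptprc, Ptpn22, Ptpn18, Ptprs and Ptpn6) ranked the libraries in the same order as this sum, with replicate 4 highest and replicate 3 lowest, as did 10.5% of all tested genes. Within the scrambled group 2 of the 26 did so, Ptprc and Ptprs, as did 4.81% of all tested genes. Monocyte and macrophage markers (11 genes) summed to 12.3 to 146 CPM in Fubp1 shRNA and 6.02 to 16.05 CPM in scrambled libraries, and mature neutrophil markers (10 genes) to 1.05 to 43.5 and 1.84 to 8.31 CPM. Their part in the phosphatase values was not tested. In sorted bulk RNA more cells of a type and more RNA per cell cannot be told apart.

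**Figure D4:**
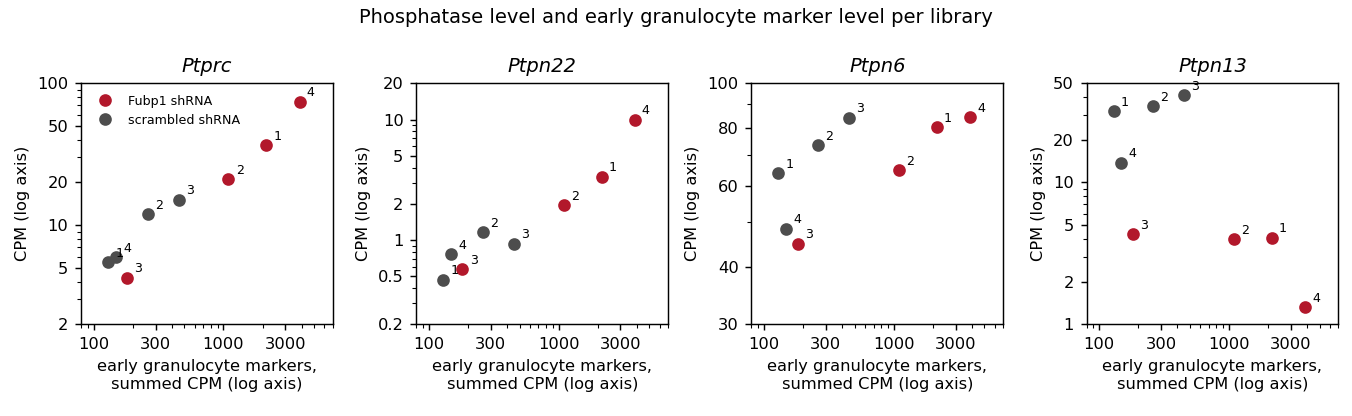
CPM of 4 phosphatase genes (y axes, log) against the summed CPM of 7 early granulocyte genes (x axes, log) in the 8 libraries; numbers are replicates. Ptprc and Ptpn22 are highest where the markers are highest, and Ptpn6 is low in Fubp1 shRNA replicate 3 and scrambled replicate 4. Ptpn13 is lower in every Fubp1 shRNA library than in every scrambled one. The part of the markers in these levels was not tested.

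Of the remaining receptor-type genes, Ptpra and Ptpre encode close relatives with short extracellular parts that act on SRC family kinases. Ptpra averaged 81.9 ± 5.61 CPM in Fubp1 shRNA and 79.1 ± 5.37 CPM in scrambled libraries (SD, n = 4 each; log2 fold change 0.05, 95% interval -0.12 to 0.22). Ptpre measured 30.4, 34.7, 18.5 and 42.9 CPM in Fubp1 shRNA and 29.9, 26.6, 34.5 and 25.0 CPM in scrambled libraries, again with replicate 3 lowest (log2 fold change 0.13, adjusted p = 0.752 by edgeR). Ptprj, a phosphatase of haematopoietic cells also known as CD148, measured 39.3, 40.2, 44.3 and 33.6 CPM in Fubp1 shRNA and 57.8, 42.5, 44.7 and 43.4 CPM in scrambled libraries. Its log2 fold change was -0.26 (SE 0.12, adjusted p = 0.166), and 57.8 CPM in scrambled replicate 1 stood apart. Ptprk and Ptprn, both under 1 CPM in every library, were not called.

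The 12 untested genes had few counts, and none exceeded 1.52 CPM in any library. Ptprq had 0 counts in all 8 libraries, where 3 counts correspond to 0.0653 to 0.135 CPM depending on the library. Ptprr, a phosphatase for MAP kinases, had 0, 6, 0 and 70 counts in Fubp1 shRNA replicates 1 to 4 and 0, 0, 1 and 0 counts in scrambled replicates 1 to 4, so nearly all its reads were from 1 mouse. DESeq2, which was run without the low count filter, called it. Ptprd had 20 counts, all in Fubp1 shRNA replicate 1. The same library held 332 CPM of the collagen gene Col1a1, against 0 to 0.198 CPM in the other Fubp1 shRNA and 0.0260 to 6.86 CPM in the scrambled libraries, and 397 CPM of Col1a2, against 12.01 to 41.3 CPM in the other Fubp1 shRNA and 42.2 to 50.9 CPM in the scrambled libraries. Of the other 7 genes of the stroma and endothelium list, Tek was highest in that library (4.31 CPM), Cdh5 was at 0 and Pdgfrb, at 1.69 CPM, was higher in Fubp1 shRNA replicate 4 (7.44 CPM). Their part in the Ptprd counts was not tested. Ptprg reached 46 counts in Fubp1 shRNA replicate 4 and 16 in scrambled replicate 3, and Ptprn2 had 1 to 6 counts in each library. The other 7 (Ptprb, Ptprh, Ptprm, Ptpro, Ptprt, Ptprz1 and Ptpn5) had between 0 and 6 counts in each library.

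Genes that work with the phosphatases were read from lists. Among 12 adaptors and partners of SHP2, all tested, edgeR called 0 in either direction, with 2 at an unadjusted p under 0.05; limma-voom called 0 and DESeq2 1. Their median log2 fold change was 0.02. Shc1, Grb2 and Gab2, adaptors that bring SHP2 or RAS activators to receptors, averaged 151, 120 and 91.1 CPM in Fubp1 shRNA and 146, 109 and 71.5 CPM in scrambled libraries.

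Of the inhibitory receptors that dock SHP1 or SHP2, 13 of 25 listed were tested, and 6 rose and 0 fell, where 8.02% of all tested genes rose. Several, such as Siglecg and Btla with scrambled means of 0.122 and 0.142 CPM, passed the count filter mainly through the Fubp1 shRNA libraries, so the list's count is no measure of its direction. Pecam1, an adhesion receptor, measured 32.6, 29.5, 9.33 and 45.3 CPM in Fubp1 shRNA replicates 1 to 4, against 3.89, 5.36, 5.90 and 2.92 CPM in scrambled replicates 1 to 4 (log2 fold change 2.68, SE 0.46, adjusted p = 0.0123 by edgeR). Pirb, a receptor for class I molecules, measured 0.725, 0.727, 0.381 and 1.04 CPM in Fubp1 shRNA and 0.167, 0.185, 0.208 and 0.135 CPM in scrambled libraries (2.02, SE 0.36, adjusted p = 0.0118). In both genes replicate 3 was the lowest of the Fubp1 shRNA libraries but still above the scrambled range. Both stayed called whichever library was dropped, and both lost the call with the replicate block (adjusted p = 0.0928 and 0.0660 by edgeR). Pirb passed the count filter through the Fubp1 shRNA libraries alone, where it was high, so its lack of overlap is no added support. Pecam1 and Pirb were the 2 of 13 genes whose groups did not overlap, against 20.7% of all tested genes.

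The other 4, Clec12a (log2 fold change 4.38), Siglecg (4.78), Fcgr2b (3.09) and Cd300a (2.26), encode receptors of myeloid or B cells and overlapped the scrambled range in replicate 3. Clec12a measured 26.2, 11.1, 1.30 and 92.3 CPM in Fubp1 shRNA, against 0.361, 0.862, 3.22 and 1.84 CPM in scrambled libraries. For each of the 4, dropping single libraries ended the call in 7 of 8 cases (adjusted p up to 0.127 by edgeR). Without Fubp1 shRNA replicate 3 the list held 14 called genes, some of them untested in the main fit, where 24.7% of all tested genes were called. Without any 1 other library it held 2, where 3.80% to 13.4% of all tested genes were called. Early granulocyte markers were higher in the same libraries, as given above, and their part was not tested.

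**Figure D5:**
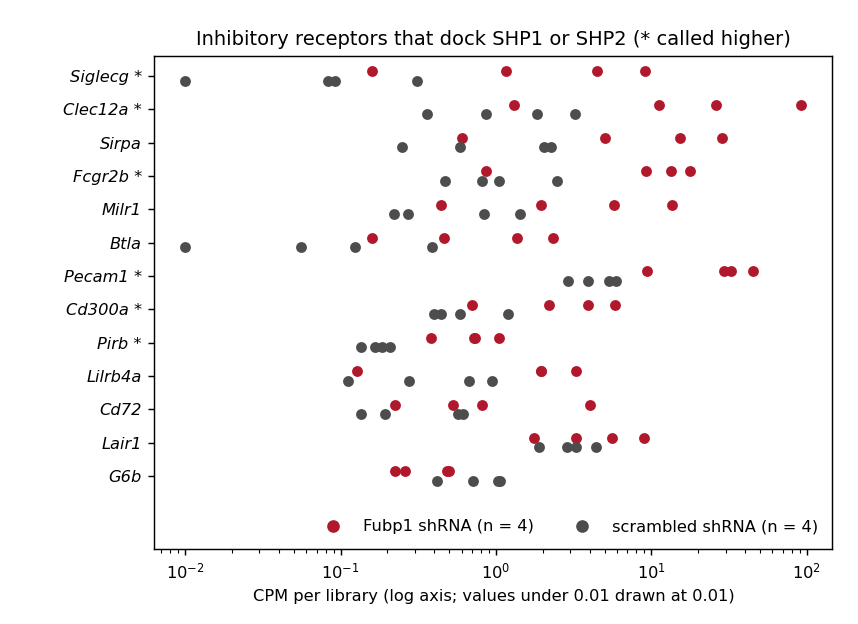
CPM per library (x axis, log; values under 0.01 drawn at 0.01) of the 13 tested receptors that dock SHP1 or SHP2, with Fubp1 shRNA above scrambled shRNA in each row (4 libraries each). Pecam1 and Pirb separate the groups; in the other starred genes the lowest Fubp1 shRNA point lies within the scrambled range.

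Among SRC family kinases and their regulators 2 of 10 tested genes rose and 0 fell, 20% called where 15.3% of all tested genes were. Lyn, a kinase known as a partner of BCR-ABL1, measured 47.9, 42.6, 40.2 and 50.7 CPM in Fubp1 shRNA replicates 1 to 4, against 28.9, 24.6, 28.0 and 29.0 CPM in scrambled replicates 1 to 4 (log2 fold change 0.71, SE 0.09, adjusted p = 0.00462 by edgeR). All 4 Fubp1 shRNA libraries were higher, replicate 3 included, and the call held in all 15 alternatives. Fyn also rose (0.52, SE 0.15, adjusted p = 0.0440), and lost the call in 7 of the 8 fits without a library (adjusted p up to 0.123). Csk, the kinase that switches SRC kinases off, averaged 274 CPM in Fubp1 shRNA and 289 CPM in scrambled libraries and was not called.

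Of 11 JAK and STAT genes, 1 rose and 1 fell, 18.2% called and near the 15.3% of all tested genes. Stat5a, a main effector of BCR-ABL1, measured 106, 102, 94.0 and 80.4 CPM in Fubp1 shRNA and 130, 140, 152 and 111 CPM in scrambled libraries (log2 fold change -0.48, SE 0.11, adjusted p = 0.0278 by edgeR). Stat3 averaged 66.8 ± 16.5 CPM in Fubp1 shRNA and 41.7 ± 7.03 CPM in scrambled libraries (SD, n = 4 each; 0.68, SE 0.19, adjusted p = 0.0440). With single libraries dropped, Stat5a stayed called in 3 and Stat3 in 1 of 8 cases (adjusted p up to 0.0885 and 0.118). Of 7 tested partners of the PEST-type phosphatases 3 rose, where 8.02% of all tested genes did: Pstpip2 (log2 fold change 1.35), an adaptor of the membrane skeleton, Wipf1 (0.46) and Was (0.29), which regulate actin. Pstpip2 stayed called whichever library was dropped, Wipf1 in 6 and Was in 1 of the 8 cases. Pstpip1, the best known partner of Ptpn12, measured 13.8, 8.16, 0.730 and 30.2 CPM in Fubp1 shRNA and 0.472, 1.94, 2.91 and 1.17 CPM in scrambled libraries and was not called (adjusted p = 0.0727).

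Tyrosine phosphatase genes outside the naming rule, among them dual-specificity and other unrelated types, numbered 27 tested of 28 listed, of which 5 rose and 1 fell, 22.2% called where 15.3% of all tested genes were. Cdc25b, which activates cyclin-dependent kinases, measured 146, 104, 182 and 178 CPM in Fubp1 shRNA replicates 1 to 4, against 44.3, 40.3, 29.9 and 72.6 CPM in scrambled replicates 1 to 4 (log2 fold change 1.71, SE 0.29, adjusted p = 0.0118 by edgeR). Cdc14a, another cell cycle phosphatase, averaged 25.8 ± 2.87 CPM in Fubp1 shRNA and 14.3 ± 0.869 CPM in scrambled libraries (SD, n = 4 each; 0.85, SE 0.10, adjusted p = 0.00307). Eya4, a transcription cofactor with a tyrosine phosphatase domain, fell at a low level, with 0.0806, 0.0991, 0.127 and 0.0653 CPM in Fubp1 shRNA and 1.05, 0.708, 1.35 and 0.495 CPM in scrambled libraries (-3.26, SE 0.42, adjusted p = 0.00415). In these 3 genes each call held in every alternative in which the gene was tested. The groups did not overlap in 11 of the 27 tested genes, among them every gene called, where 20.7% of all tested genes had that pattern. Eya4 passed the count filter through the scrambled libraries alone, where it was high, so its lack of overlap is no added support. Ubash3a (0.62), a suppressor of receptor signalling in T cells, Ptpdc1 (0.79) and Ssh2 (0.21), a cofilin phosphatase, also rose, and lost the call in 6, 6 and all 8 of the fits without a library.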

How the data were processed

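Total RNA of 8 libraries, 4 Fubp1 shRNA and 4 scrambled shRNA, was measured. Per the file headers and the series' design text the deposited table holds the authors' raw read counts per gene. The deposited log2 fold changes, p-values, mean normalized signal and test score are the authors' own, made with DESeq2 1.18.1 per the submitters' processing notes, which also name CASAVA 1.8. For the aligner, counter, strand setting and build: not given in the sources used here, so reads of overlapping or antisense genes cannot be told apart; 14 members share exon bases with another gene in GENCODE M21. All 38 member IDs were in that annotation, the source of positions and exon lengths. Each count column was tied to a mouse through the sample's description, and 0 were left over.

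Testing used edgeR 4.0.16 (R 4.3.3) on these counts: filterByExpr by group (13462 genes kept), TMM factors (0.965 to 1.03), a robust quasi-likelihood fit with group as the only term, a two-sided F test and Benjamini-Hochberg adjustment over all tested genes (threshold 0.05). Every log2 fold change is Fubp1 shRNA minus scrambled shRNA. SEs are the absolute log2 fold change over the square root of F, and 95% intervals use the fit's degrees of freedom. Alternatives were DESeq2 1.42.0, limma-voom (limma 3.58.1), 2 other scalings, 2 other filters, a replicate block and leaving out each library. All members were accounted for, those called or of at least 10 CPM by name; members and lists were chosen with earlier results of these data known. Shared replicate numbers were not taken as pairs, since the labels do not pair them. Deviations of same-numbered libraries correlated at -0.56 to 0.02. Library pairs within a group differed by a chi-square of 10.7 to 88.9 per degree of freedom, so none was a copy. Each library is 1 mouse. Floors of 3 counts cover counting error only.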

Additional observations from a re-analysis of the deposited data

Results flagged for a closer look

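In 4 of the 54 sets of 4 libraries examined, 1 library lay far from the other 3; chance alone gives about 1 in 20. Ptpn13 was low in Fubp1 shRNA replicate 4, at 1.33 CPM. Ptpn21 was high in Fubp1 shRNA replicate 2, at 6.80 CPM. Ptprj was high in scrambled shRNA replicate 1, at 57.8 CPM, and its log2 fold change without that library was -0.16 (adjusted p = 0.337 by edgeR). Fubp1 itself was high in scrambled shRNA replicate 4, at 396 CPM, and its log2 fold change without that library was -0.28. These 4 values were from 4 different libraries.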

How the results depend on the processing

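Ptpn13 kept its direction and call in all 15 alternatives. Ptpru, the 1 member called higher, made the count 0 with no low count filter, with the filter at 1 CPM in 4 libraries, with limma-voom and with the replicate block, 5 with DESeq2, and 0 to 6 leaving out 1 library. The 2 called lower became 1 with the 1 CPM filter or the block, and 1 to 2 leaving out 1 library. All called genes, 2062, became 3588 with DESeq2, 400 with the block, and 526 (without scrambled replicate 2) to 3425 (without Fubp1 shRNA replicate 3). Same-numbered libraries did not deviate together (r of -0.56 to 0.02) and the labels do not pair them, so the block is not read as a paired analysis. Whether same-numbered libraries shared a batch was not tested.

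The SHP2 adaptors had 1 call with DESeq2 and 0 to 1 leaving out 1 library. The 6 inhibitory receptors became 2 with no filter or limma-voom, 12 with DESeq2, 0 with the block and 2 to 14 leaving out 1 library. The 2 SRC family genes became 1 with no filter, limma-voom or the block, 4 with DESeq2 and 1 to 4. The 2 JAK and STAT genes became 1 with no filter, limma-voom or the block and 0 to 5. The 3 PEST partners became 0 with the block and 1 to 5, and the 6 other phosphatases 12 with DESeq2, 3 with the block and 3 to 11. Fubp1 passed the threshold with no filter (log2 fold change -0.41, adjusted p = 0.0365) and DESeq2 (-0.39, adjusted p = 0.0145), and leaving out 1 library gave -0.46 to -0.28. The causes were not tested.

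In 8 members near 0 the sign turned in 24 values, of at most 0.12 in size and with adjusted p of 0.723 or more. With no filter these were Ptpn4 (-0.015), Ptpn6 (-0.0011) and Ptpn9 (-0.012), and with limma-voom Ptpn6 (-0.0031). Leaving out 1 library gave Ptpn1 -0.0051 to 0.12, Ptpn11 -0.019 to 0.058, Ptpn4 -0.073 to 0.12, Ptpn6 -0.12 to 0.17, Ptpn9 -0.047 to 0.083, Ptpra -0.011 to 0.099, Ptpre -0.060 to 0.30 and Ptprn -0.053 to 0.42. Of 712 values for 48 named genes, 548 kept direction and side of the threshold, 132 lost the call and 8 gained it. Depth limits the 12 untested members, where 3 counts are 0.0653 to 0.135 CPM.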
